A study of Mus musculus with 60 samples.

Results

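The gene set described here holds 9 genes of inositol synthesis, uptake and recycling: Impa1, Impa2, Inpp1, Bpnt1, Isyna1, Slc5a3, Cds1, Cds2 and Cdipt. They were chosen by name, and all 9 were found among the 18088 genes of the deposited expression table. The table covers RNA-seq of prefrontal cortex from 60 C57BL/6J mice, 1 library per mouse. Mice were either wild type (WT) or heterozygous for the N2373K allele of Chd8, a chromatin remodelling gene linked to autism (Chd8+/N2373K, called Het). Pups received lithium, fluoxetine or vehicle for 3 weeks, from postnatal day 3 to 24, through the milk of their mothers, and cortex was taken on day 25. The 12 groups of 5 mice were Het and WT, male and female, under vehicle, lithium and fluoxetine. All groups, controls included, shared the strain, the age and the route through milk, so the dose that reached each pup is not known. Litters were not given in the labels, so each p-value speaks of the spread among these mice alone, some of which may share a mother.

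Myo-inositol is the sugar alcohol that forms the head group of phosphoinositide lipids. Cells make it from phosphorylated glucose, import it from outside, or recover it from the inositol phosphates released when phospholipase C cleaves phosphoinositides. Lithium ions inhibit inositol monophosphatase, inositol polyphosphate 1-phosphatase and Bpnt1, members of a family of magnesium-dependent phosphatases, and lithium is used to treat bipolar disorder. Fluoxetine is an antidepressant that blocks serotonin reuptake.

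Among the members, Impa1 and Impa2 encode the inositol monophosphatases, which carry out the last step of both recycling and new synthesis. Inpp1 removes a phosphate from inositol bisphosphate earlier in recycling, and Bpnt1 acts on the nucleotide by-product of sulfation. Isyna1 encodes inositol-3-phosphate synthase, the first enzyme of new synthesis, and Slc5a3 encodes the sodium-coupled myo-inositol transporter SMIT1. Cds1 and Cds2 make CDP-diacylglycerol, to which Cdipt joins free inositol to give phosphatidylinositol.

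Values are normalized read counts, scaled between libraries by the authors. Per kilobase of annotated exon (GRCm38, GENCODE M21), the level over 60 libraries was highest for Cds2, at a mean of 1821, followed by Cdipt at 1339, Cds1 at 793 and Bpnt1 at 708. Impa1 followed at 363 per kilobase, Isyna1 at 275, Inpp1 at 142, Slc5a3 at 72.5 and Impa2 at 26.0. The ranges of 2 neighbouring pairs in this order overlapped, Cds1 (637 to 941) with Bpnt1 (632 to 753) and Impa1 (296 to 419) with Isyna1 (195 to 388). In the other neighbouring pairs the lowest library of the higher gene lay above the highest library of the lower gene, as for Slc5a3 (47.5 to 94.6) above Impa2 (18.3 to 36.4). Of the monophosphatases Impa1 stood far above Impa2, and of the CDP-diacylglycerol synthases Cds2 (1587 to 2026 per kilobase) stood above Cds1.

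Sequencing depth, read from the step between the deposited values, ran from 24.1 M to 31.6 M reads assigned to genes per library, with a median of 28.3 M. Chd8 itself was lower in Het than in WT, at 2671 ± 134 against 3094 ± 91.7 normalized counts (SD, n = 30 each), and under vehicle by -0.23 ± 0.03 on the log2 scale (SE). Neuronal markers were high in every library, with a summed level of 180388 to 249511 over 10 genes. Libraries stood apart in markers of tissue bordering the prefrontal cortex: the summed level of 11 olfactory bulb markers was 11415 to 41124 in the 16 highest libraries and 2666 to 8538 in the other 44. Summed striatal markers ran from 3927 to 22347, oligodendrocyte markers from 34828 to 230935 and choroid plexus markers from 104 to 15696. Group medians of the striatal sum were 4206 to 4514 under vehicle, 5292 to 5926 under lithium and 4678 to 6152 under fluoxetine. The striatal score was not used as a covariate. In bulk tissue, fewer cells of a type and less RNA per cell cannot be told apart.

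**Figure D1:**
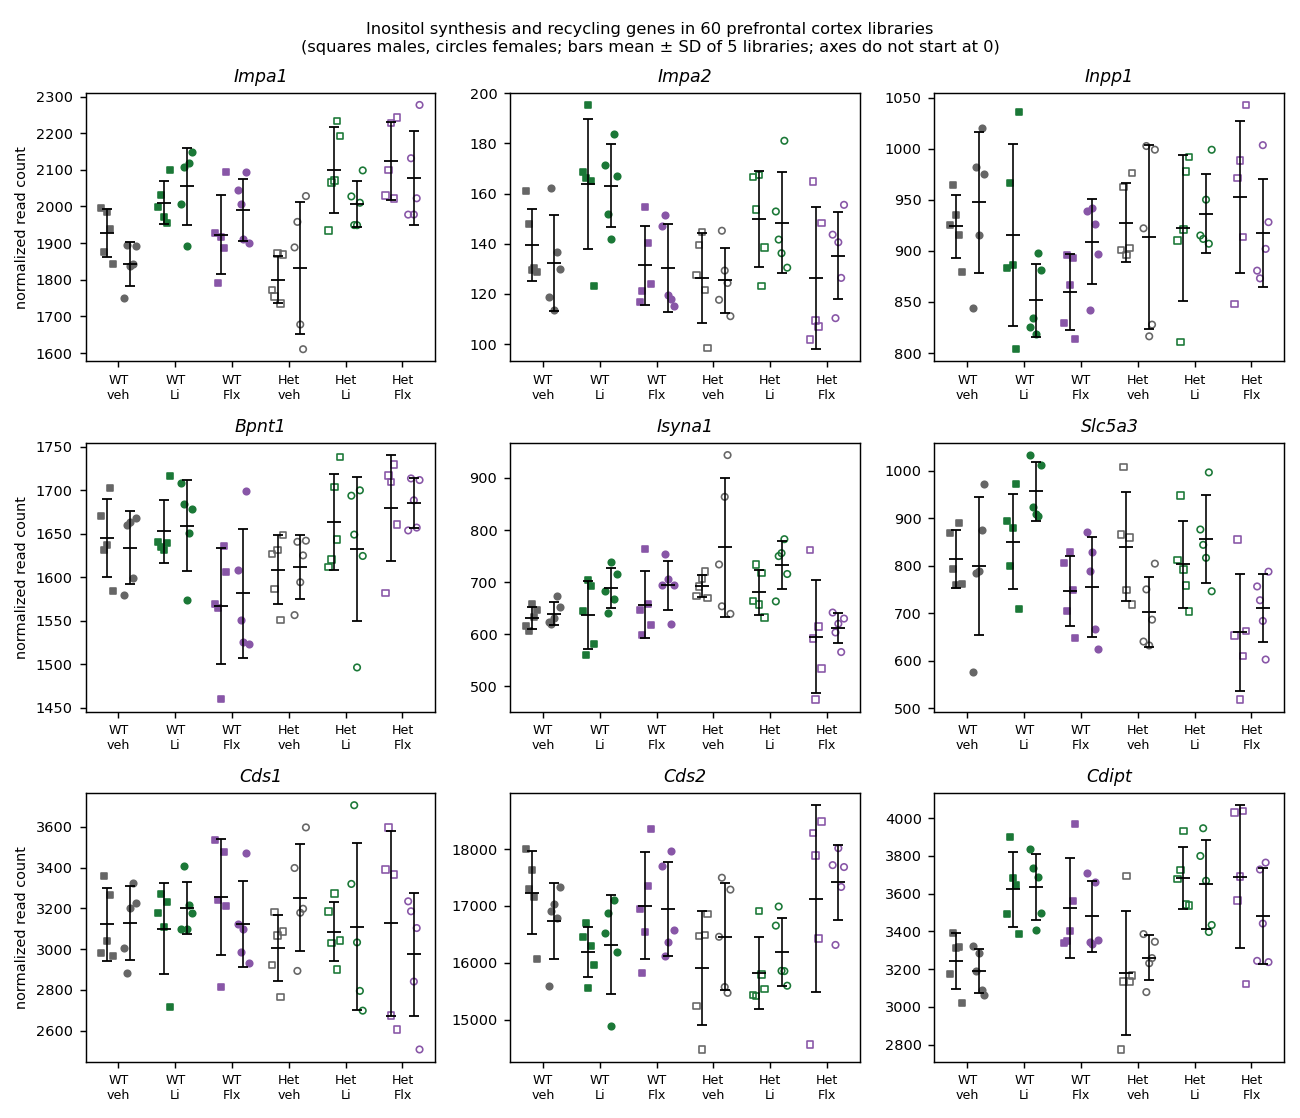
Normalized read count of each of the 9 genes in every library, by genotype and drug; squares are males, circles females, filled WT and open Het, bars mean ± SD of 5 mice, and the axes do not start at 0. The means of Impa1 and Cdipt sit higher in the lithium and fluoxetine groups than in the matched vehicle groups, except Impa1 in WT fluoxetine males (1923 against 1928). Those of Impa2 sit higher under lithium.

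Lithium raised 3 of the 9 members when both genotypes and sexes were pooled: Impa1, Impa2 and Cdipt. No member fell. Of all 17807 genes tested, 19.1% were called in this comparison, 10.3% higher and 8.79% lower, and a gene was called at a Benjamini-Hochberg adjusted p under 0.05 in a limma fit of log2 values. The median log2 change of the 9 members was 0.02, beside -0.00 over all genes tested. No member separated the groups completely, as did 0.0112% of all genes.

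Impa1 (chromosome 3, 10311956 to 10331439, minus strand) is the main inositol monophosphatase of brain. Its normalized count was 1611 at the lowest, 1871 at the median and 2028 at the highest of the 20 vehicle libraries. Under lithium the corresponding values were 1894, 2029 and 2233. All 20 lithium libraries lay above their matched vehicle mean, that of the 5 vehicle libraries of the same genotype and sex, although the ranges overlapped. Every later count of libraries on a side of a mean is matched by group in this way. The change was 0.14 ± 0.02 on the log2 scale (SE, 95% interval 0.09 to 0.19, limma adjusted p = 3.06e-05), or 10.4%. A protein-coding gene on the same strand, Gm38303, shares 243 exon bases with Impa1 and was not among the deposited genes.

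Impa2 (chromosome 18, 67289186 to 67322472, plus strand), the second monophosphatase, was the member with the largest change under lithium and the lowest level. It ran from 98.4 through a median of 129.5 to 162 under vehicle, and from 123 through 159 to 195 under lithium. The upper part of the lithium range lay above every vehicle library, and 18 of 20 lithium libraries were above their matched vehicle mean. The change was 0.25 ± 0.06 (95% interval 0.13 to 0.38; limma adjusted p = 0.00327), or 19.1%. An antisense gene, B430212C06Rik, shares 1264 exon bases with Impa2 and had a mean of 9.19.

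Cdipt (chromosome 7, 126975914 to 126980501, plus strand), the phosphatidylinositol synthase, ran from 2774 through 3210.1 to 3693 under vehicle and from 3388 through 3672 to 3947 under lithium. The lowest lithium library was above the median vehicle library, and all 20 were above their matched vehicle mean. The change was 0.18 ± 0.03 (95% interval 0.12 to 0.24, limma adjusted p = 1.95e-05), or 13.4%. A gene on the opposite strand, Cdiptos, shares 169 exon bases with Cdipt and was not among the deposited genes.

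The other 6 members did not pass the test in the pooled lithium comparison. Slc5a3 was the nearest, at 577, 786 and 1007 (lowest, median, highest) under vehicle and 703, 878 and 1033 under lithium. The lower end of the lithium range was higher, but 6 of 20 lithium libraries were at or below their matched vehicle mean, and the difference of 0.14 ± 0.06 (95% interval 0.03 to 0.25) had a limma adjusted p of 0.0685. It passed at 0.25 with an adjusted p of 0.00725 when the 16 libraries with most olfactory bulb marker were left out, and at 0.16 (adjusted p = 0.0195) with olfactory bulb and oligodendrocyte scores as covariates. Intervals of the phosphatases were -0.10 to 0.03 for Inpp1 and -0.01 to 0.06 for Bpnt1. For Isyna1 the interval was -0.07 to 0.09, for Cds1 -0.08 to 0.07 and for Cds2 -0.09 to 0.01. These bounds limit a change of Bpnt1 or Cds2 more tightly than one of Isyna1, and a p that misses the threshold does not show that lithium left them alike.

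**Figure D2:**
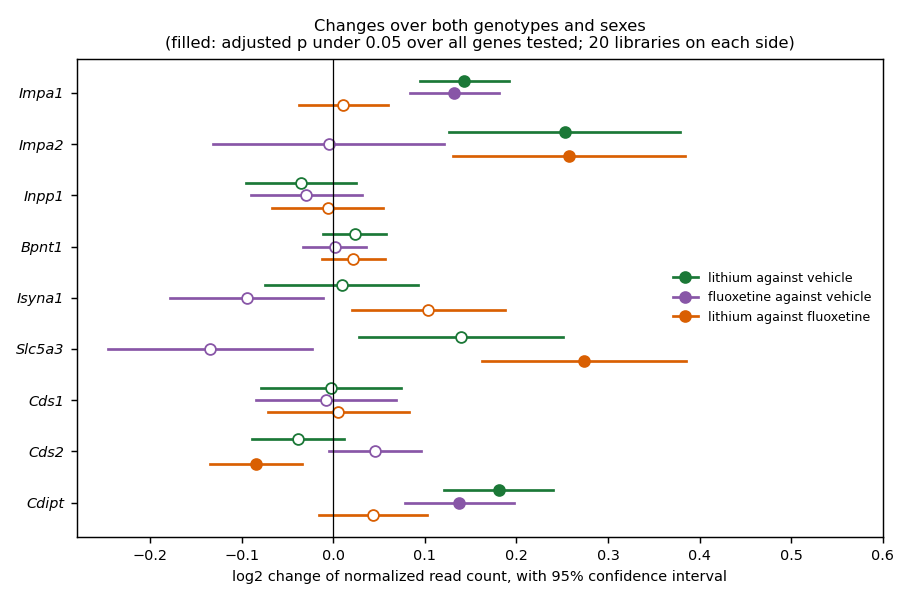
Log2 change of each gene with its 95% interval for lithium against vehicle (green), fluoxetine against vehicle (purple) and lithium against fluoxetine (orange), 20 libraries a side; filled points have an adjusted p under 0.05. Impa1 and Cdipt lie to the right of 0 for both drugs, whereas Impa2 is at 0.25 for lithium and -0.01 for fluoxetine.

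Within genotypes, lithium raised Cdipt in WT and Impa1 and Cdipt in Het mice. In WT, where 2.97% of all genes were called, Cdipt was 0.17 ± 0.04 higher (limma adjusted p = 0.0151, 10 of 10 libraries above their matched vehicle mean). Impa1 was 0.11 ± 0.03 (adjusted p = 0.0676) and Impa2 0.26 ± 0.09 (adjusted p = 0.0904) in WT, short of the threshold. In Het, where 9.14% of genes were called, Impa1 was 0.18 ± 0.03 higher (adjusted p = 0.000809, 10 of 10) and Cdipt 0.19 ± 0.04 higher (adjusted p = 0.00324, 10 of 10). Impa2 was 0.24 ± 0.09 in Het (adjusted p = 0.0740). The direct test of whether the lithium effect differed by genotype called 0 of the 9 members and 0 of all genes (615 genes at an unadjusted p under 0.05), so the separate calls are not evidence that the genotypes differ. The Het call of Cdipt was lost when the 16 olfactory-rich libraries were left out (0.13, adjusted p = 0.127).

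The sexes were also looked at one by one, 5 mice against 5. In Het males, where 1.44% of genes were called higher, Impa1 read 1934, 2065, 2071, 2233 and 2192 under lithium against 1772, 1755, 1872, 1735 and 1869 under vehicle. Every lithium male lay above every vehicle male, a separation found for 4.35% of all genes, and the rise was 0.22 ± 0.05 (limma adjusted p = 0.00981). Cdipt in Het males read 3676, 3726, 3931, 3542 and 3538 under lithium against 2774, 3134, 3693, 3133 and 3165 under vehicle, where 1 vehicle male at 3693 reached into the lithium range. Its rise was 0.22 ± 0.06 (limma adjusted p = 0.0387), and this call was lost in 7 of the 10 fits that left out 1 library. Without lithium male replicate 4 the Impa1 change had an adjusted p of 0.0546, and without the 16 olfactory-rich libraries, 3 of the 5 Het vehicle males among them, Impa1 was at 0.19 and Cdipt at 0.11 and neither was called.

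In the other 3 combinations no member was called under lithium, with 0.0786% of genes called in WT males, 0.118% in WT females and 0.629% in Het females. The changes of Impa1, Impa2 and Cdipt were nevertheless positive there, at 0.06 to 0.16 for Impa1, 0.22 to 0.31 for Impa2 and 0.16 to 0.19 for Cdipt. Cdipt in WT females read 3835, 3737, 3409.5, 3686 and 3499 under lithium and 3323, 3189, 3285, 3089 and 3065 under vehicle. These groups did not overlap, as held for 3.97% of genes, but the adjusted p was 0.182. In Het females Cdipt again did not overlap, at 3800, 3947, 3668, 3397 and 3434 under lithium against 3386, 3078, 3231, 3258 and 3345 under vehicle (2.35% of genes; adjusted p = 0.192).

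The point estimates for Slc5a3 under lithium were 0.28 ± 0.11 in WT females and 0.28 ± 0.11 in Het females against 0.06 in WT males and -0.06 in Het males. Het females under lithium read 876, 844, 816, 996 and 746, and under vehicle 640.0, 749.8, 632, 686 and 804. Het males under lithium read 811, 948, 792, 759 and 703, inside the vehicle range of 718 to 1007 but for the lowest. The test of the difference between sexes gave -0.28 ± 0.11 (males minus females, unadjusted p = 0.0139, limma adjusted p = 0.877), and that test called 0 genes (980 at an unadjusted p under 0.05).

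**Figure D3:**
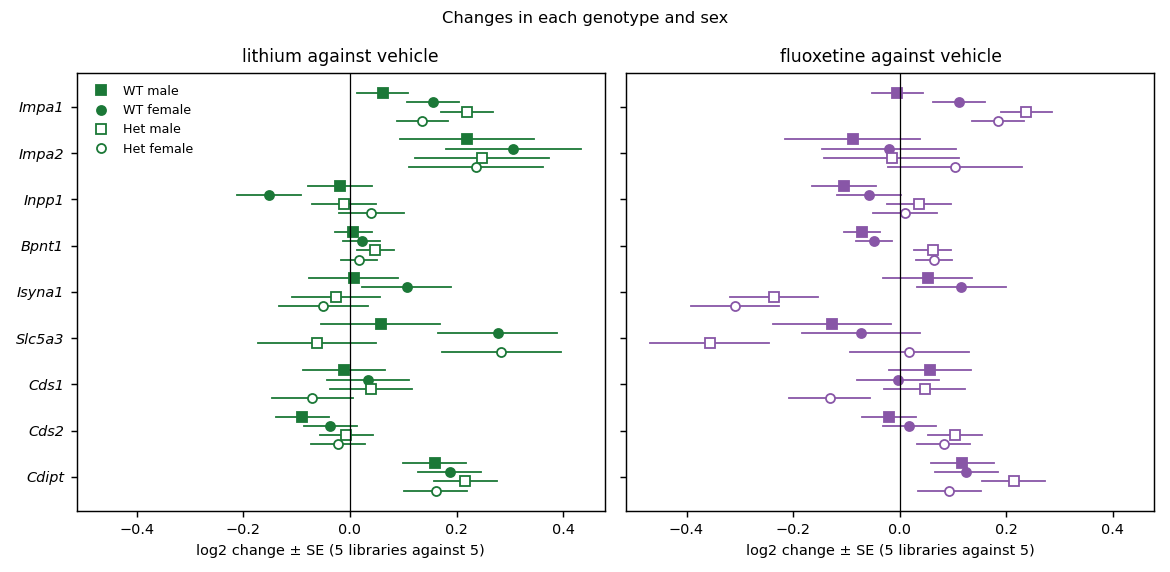
Log2 change ± SE of each gene in each genotype and sex, 5 mice against 5, for lithium (left) and fluoxetine (right) against vehicle. Impa1, Impa2 and Cdipt are above 0 at all 4 points of the lithium panel, while under fluoxetine Isyna1 is below 0 in Het mice of both sexes.

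Fluoxetine raised 2 of the 9 members in the pooled comparison, Impa1 and Cdipt, and lowered none, where 33.6% of all genes were called. Of these, 3140 genes were higher and 2846 lower, or 2134 and 3584 with values rescaled to equal totals, and the members' share of calls was no larger than that of all genes. The vehicle libraries are the same as in the lithium comparison, so the drug effects share their controls and are not independent of each other. Impa1 ran from 1792 through 2022 to 2277 under fluoxetine, reaching above all vehicle and lithium libraries at its top but overlapping vehicle at its base. The change was 0.13 ± 0.02 (95% interval 0.08 to 0.18; limma adjusted p = 2.78e-05; 16 of 20 libraries above their matched vehicle mean), or 9.59%. Cdipt ran from 3121 through 3502 to 4038.5, and its change was 0.14 ± 0.03 (95% interval 0.08 to 0.20; adjusted p = 0.000275; 17 of 20 above their matched mean), or 9.99%. Impa2 did not pass the test and ran from 102 through 125 to 165, at -0.01 ± 0.06 (95% interval -0.13 to 0.12; adjusted p = 0.960). Slc5a3, at 518, 715 and 870.1, gave -0.13 ± 0.06 with an adjusted p of 0.0548, and Isyna1 -0.09 ± 0.04 with an adjusted p of 0.0725.

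In Het mice of both sexes fluoxetine raised Impa1, Bpnt1, Cds2 and Cdipt and lowered Isyna1, where 32.9% of all genes were called. In WT mice, where 8.20% of genes were called, no member passed. Isyna1 (chromosome 8, 70594373 to 70597290, plus strand) read 734, 653, 864, 944 and 639 in Het vehicle females and 674, 692, 707, 720.4 and 669.6 in Het vehicle males. Under fluoxetine it read 641, 603, 619.8, 565 and 629.7 in Het females and 762, 591, 474.5, 615 and 533 in Het males. All but the female at 641 and the male at 762 lay below every Het vehicle library. The means were 603.5 and 729.6, a fall of -0.27 ± 0.06 (limma adjusted p = 0.000312; 9 of 10 libraries below their matched vehicle mean), or -17.2%.

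In WT mice Isyna1 read 695, 753, 705, 619.8 and 695 in fluoxetine females and 623, 619, 630.5, 672 and 651 in vehicle females. WT males read 646, 598, 764, 658 and 617 under fluoxetine against 615, 605, 658, 632 and 645 under vehicle. Most WT fluoxetine libraries lay within or above the vehicle range, and the WT difference was 0.08 ± 0.06 (limma adjusted p = 0.400). The test of the difference, the fluoxetine effect in Het minus that in WT, gave -0.36 ± 0.08 (95% interval -0.52 to -0.19; limma adjusted p = 0.0263), where 1.70% of all genes were called. Without Het vehicle female replicate 3 it was -0.33 (adjusted p = 0.0578) and without replicate 4 -0.32 (adjusted p = 0.0563), the libraries at 864 and 944. These libraries had the lowest neuronal scores of all 60 (-0.30 and -0.36, log2 scale) and endothelial scores of 0.43 and 0.29, and the part of this in the result was tested only with the scores as covariates. The difference was -0.31 with olfactory bulb and oligodendrocyte scores (adjusted p = 0.0736) and -0.25 with neuronal and endothelial scores (0.0934), -0.43 without the 16 olfactory-rich libraries (0.0974) and -0.36 in a fit of the compared groups alone (0.0566).

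The genotypes already lay apart in part under vehicle. Het vehicle libraries had more Isyna1 than WT vehicle libraries, 639 to 944 against 605 to 672, by 0.19 ± 0.06 (95% interval 0.07 to 0.31; unadjusted p = 0.00217). With 0.0562% of all genes called between the genotypes under vehicle, the limma adjusted p was 0.403 and no member passed. Het minus WT under fluoxetine was -0.17 ± 0.06 for Isyna1 (adjusted p = 0.0665).

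Impa1 in Het females read 1978, 2132, 1978, 2022 and 2277 under fluoxetine and 1888, 1958, 1678, 1611 and 2028 under vehicle. In Het males it read 2030.4, 2099, 2228, 2022 and 2243 under fluoxetine, all above the male vehicle range of 1735 to 1872, as held for 7.22% of all genes. The change over both sexes was 0.21 ± 0.03 (limma adjusted p = 5.48e-06; 10 of 10 libraries above their matched vehicle mean), or 15.7%. In WT it was 0.05 (adjusted p = 0.353), and the difference between genotypes was 0.16 ± 0.05 with an adjusted p of 0.0626, short of the threshold.

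Bpnt1 (chromosome 1, 185332149 to 185357777, plus strand) had the smallest of the called changes in Het mice. Het fluoxetine libraries read 1654, 1713, 1688, 1657 and 1712 in females and 1582, 1717, 1709, 1729.5 and 1661 in males. Het vehicle libraries ran from 1551 to 1648, so 9 of 10 fluoxetine libraries lay above that range. The rise was 0.06 ± 0.02 (limma adjusted p = 0.0393), and the difference from the effect in WT was 0.12 ± 0.03 (95% interval 0.05 to 0.19; adjusted p = 0.0489). The Het call was lost in 10 of 20 fits that left out 1 library and the call of the difference in 27 of 40. Each of these calls was also lost in 6 of 9 other alternatives.

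The remaining Het calls under fluoxetine were Cdipt and Cds2. Cdipt rose by 0.15 ± 0.04 (limma adjusted p = 0.00363; 7 of 10 libraries above their matched vehicle mean), with Het males at 4030.3, 3563, 3692, 4038.5 and 3121 the last of these below 8 of the 10 Het vehicle libraries. Without the 16 olfactory-rich libraries the Cdipt change was 0.14 with an adjusted p of 0.0669. Cds2 (chromosome 2, 132263148 to 132312050, plus strand) rose by 0.09 ± 0.04 (adjusted p = 0.0371; 8 of 10 above their matched mean). The Cds2 call was lost in 10 of 20 fits that left out 1 library and its sign turned to -0.0056 with quantile normalization.

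Split by sex, fluoxetine called 4 members in Het males (22.7% of genes) and 2 in Het females (15.1%), and none in WT males (1.34%) or WT females (2.50%). In WT females Impa1 and Cdipt did not overlap between fluoxetine and vehicle (5.63% of genes), at 0.11 (limma adjusted p = 0.219) and 0.12 (0.268), nor did Bpnt1 in Het females (6.86% of genes). In both sexes of Het mice Impa1 rose, by 0.24 ± 0.05 in males and 0.18 ± 0.05 in females, and Isyna1 fell, by 0.24 ± 0.08 and 0.31 ± 0.08. Cdipt rose by 0.21 ± 0.06 in Het males. Slc5a3 fell in Het males, where fluoxetine libraries read 653, 855, 518, 609 and 662.5 against 865, 1007, 748, 859 and 718 under vehicle, by 0.36 ± 0.11 (limma adjusted p = 0.0164; 4 of 5 below the vehicle mean). The Slc5a3 call was lost without fluoxetine male replicate 3 (-0.27, adjusted p = 0.0995) or without vehicle male replicate 2 (-0.29, adjusted p = 0.0754), while the Isyna1 call was lost in 6 of 10 such fits in Het males (adjusted p up to 0.200) and 2 of 10 in Het females (up to 0.0699). Without the 16 olfactory-rich libraries, which include 3 of the 5 Het vehicle males, no member was called in Het males, at -0.31 for Slc5a3, 0.20 for Cdipt, 0.16 for Impa1 and -0.18 for Isyna1. With neuronal and endothelial scores as covariates the Het female changes were 0.08 for Impa1 (adjusted p = 0.265) and -0.14 for Isyna1 (adjusted p = 0.229). The test of whether fluoxetine effects differed by sex called 0 genes (819 at an unadjusted p under 0.05).

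Markers of other cell types moved in the fluoxetine comparison too. Among all 17807 genes, 32.9% were called in Het mice of both sexes, 3003 higher and 2850 lower. In Het mice of both sexes, 5 of 9 endothelial markers fell under fluoxetine (Cldn5, Pecam1, Tek, Cdh5 and Itm2a; median -0.23), 5 of 10 microglial markers fell (median -0.18) and 3 of 10 neuronal markers rose (Snap25, Syt1 and Rbfox3; median 0.18). The summed endothelial level was 8702 to 12967 in Het vehicle females and 9486 to 10669 in Het vehicle males, against 8126 to 9995 and 8043 to 11252 under fluoxetine. With neuronal and endothelial scores as covariates, an alternative added after the data were seen, the fall of Isyna1 in Het mice was -0.14 (limma adjusted p = 0.0330) and the rise of Impa1 0.13 (adjusted p = 0.00226), while Cdipt at 0.12 (adjusted p = 0.0670), Bpnt1 at 0.02 and Cds2 at 0.00 were no longer called. Under lithium, pooled, where 10.3% of all genes were called higher and 8.79% lower, 2 of 10 neuronal markers rose (median 0.07). In that comparison 4 of 9 endothelial (median -0.12) and 3 of 10 astrocyte markers fell (median -0.09). With neuronal and endothelial scores as covariates, 6 members were called under pooled lithium. Impa1, Impa2 and Cdipt stayed called, and Isyna1 was called higher (0.09, limma adjusted p = 0.0427). Inpp1 (-0.09, adjusted p = 0.0171) and Cds2 (-0.08, adjusted p = 0.00257) were called lower. Beyond the covariate fits, the part of the marker shifts in the member changes was not tested.

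Lithium and fluoxetine libraries were compared directly, 20 against 20, to see where the drugs differed. Impa2 and Slc5a3 were higher and Cds2 lower under lithium, where 28.9% of all genes were called, 14.3% higher and 14.6% lower. Impa2 differed by 0.26 ± 0.06 (limma adjusted p = 0.00132; 17 of 20 lithium libraries above their matched fluoxetine mean), or 19.6%. Slc5a3 differed by 0.27 ± 0.06 (adjusted p = 0.000131; 19 of 20 above their matched mean), or 20.9%, with lithium libraries at 703 to 1033 and fluoxetine libraries at 518 to 870.1. Neither drug alone had moved Slc5a3 past the threshold against vehicle, with estimates on opposite sides of 0.

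Cds2 ran from 14894 through 16077 to 17104 under lithium and from 14569 through 17344 to 18483 under fluoxetine, so the fluoxetine values reached higher. The difference was -0.08 ± 0.03 (limma adjusted p = 0.00772; 19 of 20 lithium libraries below their matched fluoxetine mean), or -5.71%. It missed the threshold with quantile normalization (adjusted p = 0.222), with values rescaled between libraries (0.0668) and without the 16 olfactory-rich libraries (0.115). Impa1 and Cdipt, which each drug had raised, differed between the drugs by 0.01 ± 0.02 (95% interval -0.04 to 0.06; adjusted p = 0.777) and 0.04 ± 0.03 (-0.02 to 0.10; adjusted p = 0.286). A p above the threshold does not show that the drugs acted alike on them. The 95% intervals reached no further than 0.10, in a fit that could not include litters.

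Within WT mice, lithium libraries exceeded fluoxetine libraries in Impa2, Slc5a3 and Bpnt1, where 7.74% of genes were called. Impa2 was 0.32 ± 0.09 higher (limma adjusted p = 0.0174), Slc5a3 0.27 ± 0.08 (0.0242) and Bpnt1 0.07 ± 0.02 (0.0487), the last lost in 15 of 20 fits that left out 1 library. Within Het mice, where 25.0% were called, Slc5a3 was 0.28 ± 0.08 higher (adjusted p = 0.00601; 10 of 10) and Isyna1 0.23 ± 0.06 higher (0.00219; 10 of 10), and Cds2 was -0.11 ± 0.04 lower (0.0202; 10 of 10). The WT call of Slc5a3 was lost in 4 of 20 such fits (adjusted p up to 0.0717) and with olfactory bulb and oligodendrocyte scores as covariates (0.21, adjusted p = 0.0714). Whether these differences depend on genotype was not tested.

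Slc5a3 (chromosome 16, 92058322 to 92087473, plus strand) starts inside Mrps6, a gene for a mitochondrial ribosomal protein on the same strand (92058270 to 92112227), and the exons of the genes share 159 bases. Reads from shared exons may be split between them in ways the deposited values do not show. Another gene on the same strand, Gm49711, also shares 159 exon bases with Slc5a3 and was not among the deposited genes. Mrps6 ran from 345 through 409 to 564 under vehicle, from 402 through 481 to 546 under lithium and from 333 through 442 to 479 under fluoxetine. Lithium raised Mrps6 by 0.19 ± 0.04 (limma adjusted p = 0.00148; 18 of 20 above their matched mean), while fluoxetine gave 0.03 ± 0.04 (adjusted p = 0.645). Lithium against fluoxetine was 0.16 ± 0.04 for Mrps6 (adjusted p = 0.00366; 18 of 20 above their matched mean), the same direction as for Slc5a3.

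The sequence upstream of Slc5a3 is shown because its transcript and that of Mrps6 start there side by side and both were higher under lithium than under fluoxetine, and that upstream of Isyna1 because it was the member that fell in Het mice under fluoxetine. RefSeq promoter windows (GRCm38.p6) were examined for 6 of the 9 members: Inpp1, Bpnt1, Isyna1, Slc5a3, Cds1 and Cds2. Windows of Impa1, Impa2 and Cdipt were not examined. Capitals mark the letters GGGCGG, a GC box to which Sp1-type factors bind, in Slc5a3 and the reverse complement of CCAAT in Isyna1, both plus strand as written:
Slc5a3, chr16:92058072-92058269, plus strand: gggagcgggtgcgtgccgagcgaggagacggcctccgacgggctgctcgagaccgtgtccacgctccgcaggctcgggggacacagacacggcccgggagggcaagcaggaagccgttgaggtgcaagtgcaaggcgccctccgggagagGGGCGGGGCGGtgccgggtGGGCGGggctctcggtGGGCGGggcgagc
Isyna1, chr8:70594231-70594372, plus strand: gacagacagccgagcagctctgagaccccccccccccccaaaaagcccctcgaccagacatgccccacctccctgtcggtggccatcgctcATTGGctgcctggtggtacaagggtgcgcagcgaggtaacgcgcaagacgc
The Slc5a3 window of 198 bases ends directly before Mrps6 and held 4 matches to GGGCGG on either strand, the first pair overlapping by 1 base, and 0 to CCAAT, with 75.76% G and C. The Isyna1 window of 142 bases held 0 matches to GGGCGG and 1 to CCAAT, with 66.2% G and C. Of all 32851 promoter windows, 35.66% held GGGCGG and 37.41% held CCAAT on either strand. Those windows hold 250 bases before the start and 50 after it, so they are longer than the printed stretches. Over its full window Slc5a3 likewise held 4 matches to GGGCGG and 0 to CCAAT, and Isyna1 held 0 and 1. A match describes the letters only and does not show that a factor binds there.

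No member passed the test between the genotypes under vehicle or lithium. Under vehicle 0.0168% of genes were called in males, 0.0225% in females and 0.0562% in both, and under lithium 0.00562%, 0.0168% and 0.0393%. Under vehicle, 2 members in males, 1 in females and 1 in both sexes had an unadjusted limma p under 0.05. Under fluoxetine, with both sexes and 7.33% of genes called, Bpnt1 was 0.10 ± 0.02 higher in Het than in WT (limma adjusted p = 0.0121; 10 of 10 Het libraries above the WT mean of their sex). WT fluoxetine libraries of Bpnt1 ran from 1460 to 1699 and Het ones from 1582 to 1729.5. Impa1 was 0.10 ± 0.03 higher (adjusted p = 0.0550), short of the threshold. Split by sex, no member passed under fluoxetine (1.18% of genes called in males and 0.0393% in females). The Bpnt1 call was lost with neuronal and endothelial scores as covariates, without the 16 olfactory-rich libraries and in a fit of those groups alone. Males and females under vehicle differed in 0 members (0.0955% of genes).

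Beyond the members, 90 other genes of inositol phosphate and phosphoinositide metabolism were measured, in 7 lists. Lithium called 16 of the 90 (17.8%, near the 19.1% of all genes), 6 higher and 10 lower. Fluoxetine called 35 (38.9%, beside 33.6%), 25 higher and 10 lower, and in Het mice alone 41 (45.6%, beside 32.9%). In WT mice fluoxetine called 5 (5.56%, beside 8.20%).

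The inositol phosphate kinases, 11 genes that build the higher inositol phosphates, had a median change of 0.05 under lithium and 0.04 under fluoxetine, beside -0.00 and 0.00 over all genes. Itpk1, which feeds inositol tetrakisphosphate synthesis, rose with both drugs, by 0.17 under lithium (limma adjusted p = 0.000169) and 0.25 under fluoxetine (adjusted p = 6.97e-08). It ran from 1323 to 1729 under vehicle, 1436 to 1979.9 under lithium and 1543 to 2036 under fluoxetine. Ip6k2 rose by 0.11 under lithium and 0.14 under fluoxetine. Itpkc, a kinase of inositol trisphosphate, ran from 186 to 248 under vehicle and 129 to 221 under fluoxetine, where it fell by 0.38 (adjusted p = 1.13e-07), and Ipmk fell by 0.16 (adjusted p = 6.92e-06). Under lithium the kinase Ppip5k2 fell by 0.10 (adjusted p = 0.0190).

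Of 17 phospholipase C and inositol trisphosphate receptor genes, lithium lowered 3 and raised none (median -0.07), a share of 17.6% beside 19.1% of all genes called. The 3 were the receptors. Itpr1, the main neuronal receptor, fell by 0.16 (limma adjusted p = 0.0425), Itpr2 by 0.21 (adjusted p = 0.00273) and Itpr3 by 0.36 (adjusted p = 0.00872). Itpr3 ran from 122 to 308 under vehicle and 120.3 to 281 under lithium, so the ranges overlapped widely. Fluoxetine lowered Itpr3 by 0.29 (adjusted p = 0.0212) and Plcg1 by 0.10 (adjusted p = 0.00315), and raised the phospholipase-like genes Plcl1 by 0.13 (adjusted p = 9.82e-05) and Plcl2 by 0.17 (adjusted p = 0.00262).

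Among 7 osmolyte transport and osmotic response genes, those related in function to Slc5a3, Nfat5 and Slc6a6 fell with both drugs and none rose. Nfat5, the transcription factor of the osmotic response, fell by 0.12 under lithium (limma adjusted p = 0.0232) and 0.21 under fluoxetine (adjusted p = 7.28e-05). Slc6a6, the taurine transporter, fell by 0.13 (adjusted p = 0.00221) and 0.12 (adjusted p = 0.00283). The list's medians were -0.06 under lithium and -0.02 under fluoxetine. Of 5 other genes for lithium-sensitive enzymes, lithium called 0 and fluoxetine called Gsk3a, at 0.06 (adjusted p = 0.0424). In either direction, lithium called 19.1% of all genes and fluoxetine 33.6%.

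Of 19 phosphatases of inositol phosphates and phosphoinositides, lithium raised Inpp5a by 0.13 (limma adjusted p = 0.00914) and Inpp5e by 0.08 (adjusted p = 0.0458), and lowered Nudt10 by 0.10 (adjusted p = 0.0281). Fluoxetine raised 8, among them Inpp5k by 0.24 (adjusted p = 0.000199), and lowered Inppl1 by 0.22 (adjusted p = 1.61e-06). Inppl1 ran from 973 to 1152 under vehicle and 705 to 1072 under fluoxetine. Inppl1 acts on the lipid product of phosphoinositide 3-kinase. Of all genes, fluoxetine called 17.6% higher and 33.6% in either direction, and lithium 10.3% and 19.1%.

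Of 12 phosphoinositide kinases, lithium raised Pip4k2c by 0.11 (limma adjusted p = 0.0101) and fluoxetine raised 5, among them Pip5k1b by 0.29 (adjusted p = 2.73e-05) and Pik3c3 by 0.13 (adjusted p = 7.42e-07), with none lower under either drug. The next list, of 19 genes, held diacylglycerol kinases and phosphatidylinositol transfer proteins, with Tamm41 and Pgs1. The kinases make phosphatidic acid, the substrate of Cds1 and Cds2, and the transfer proteins carry phosphatidylinositol between membranes. Of the 19, lithium raised Pitpnm2 by 0.13 (adjusted p = 0.0333). It lowered Dgkb by 0.14 (adjusted p = 0.0140), Dgki by 0.19 (adjusted p = 0.0182) and Pitpnm1 by 0.09 (adjusted p = 0.0400). Fluoxetine raised 5 of the 19 and lowered 3, with Dgkg highest at 0.40 (adjusted p = 0.000848) and Pitpnm3 lowest at -0.18 (adjusted p = 0.000547). Beside these lists, fluoxetine called 17.6% of all genes higher and 33.6% in either direction, and lithium 10.3% and 19.1%. The direct comparison of the drugs called 31 of the 90 genes (34.4%, beside 28.9%), 9 higher and 22 lower under lithium.

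**Figure D4:**
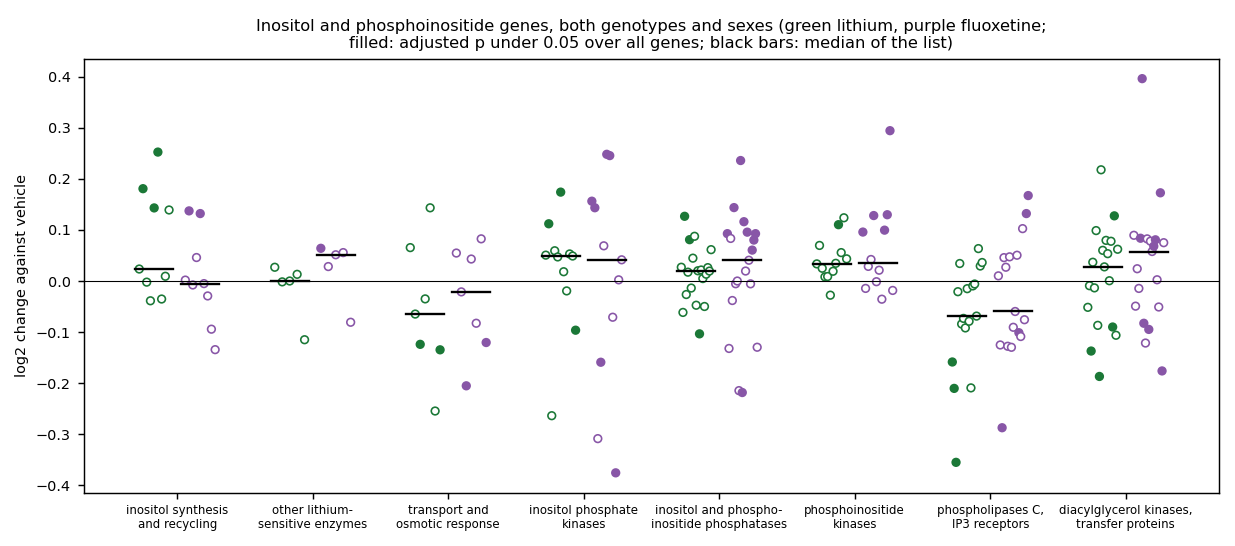
Log2 change of the 9 genes and of the genes in 7 other lists, lithium (green) and fluoxetine (purple) against vehicle, 20 libraries a side; filled points have an adjusted p under 0.05 and black bars are list medians. The 3 receptor genes lie below 0 under lithium, and the phosphoinositide kinases hold filled points above 0 under fluoxetine.

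Over the 60 libraries the members varied in more than 1 pattern, described here by Pearson's r of log2 values over libraries that share treatments, depth and tissue makeup. Impa2 went with Slc5a3 (r = 0.62), and Impa1 with Bpnt1 (0.50) and Cdipt (0.46). Isyna1 ran opposite to Cds2 (-0.56) and Impa1 (-0.46). Against marker scores, Impa1 gave 0.65 with the neuronal and -0.68 with the endothelial score, whereas Isyna1 gave -0.55 and 0.63. Cdipt gave 0.38 and -0.34, Impa2 0.30 and -0.17, and Slc5a3 0.21 and 0.05. Impa2 went more closely with the striatal (0.48) and oligodendrocyte (0.47) scores. Cdipt gave -0.41 with the olfactory bulb score, and Isyna1 0.64 with the microglial score. Among genes with a mean of at least 50, those most like each member were Slc1a1 for Impa1 (r = 0.81), Car12 for Impa2 (0.73), Rlf for Inpp1 (0.72) and Etv5 for Bpnt1 (0.71). They were Vwa1 for Isyna1 (0.76), Amd1 for Slc5a3 (0.82), Sertm1 for Cds1 (0.78), Scn2a for Cds2 (0.86) and Pgam1 for Cdipt (0.88).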

How the data were processed

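Messenger RNA libraries were made with a strand-marking poly-A kit, per the labels' protocols. The deposited table holds a signal per gene and library that the authors normalized between libraries; GRCm38, R 3.6.0, Salmon 0.11.2 and DESeq2 1.19.11 are listed in the submitters' processing notes without a role, and the annotation is not given in the sources used here. Gene identifiers were paired with symbols and positions of GENCODE M21 (GRCm38).

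The 17807 genes that reached 10 in 5 or more libraries were kept, log2(value + 1) was taken, and limma 3.58.1 was fitted to the 12 groups (48 residual degrees of freedom), so fold changes are on that scale and understate those of low genes. Tests were two-sided, with Benjamini-Hochberg adjustment over all genes tested and a threshold of 0.05. Each value was a whole multiple, within 0.001, of 1 step per library, from which depth was read. Named genes were the 9 members, up to 3 genes of each other list with the smallest p in the pooled comparison of each drug, the 3 genes most correlated with each member (the closest printed), Chd8, Mrps6 and overlapping genes; Pitpnm1 and the marker genes were named after their values were seen. Alternatives were pseudocount 10, no filter, quantile normalization, rescaling to equal totals, a replicate block, marker scores as covariates, leaving out 16 libraries rich in olfactory bulb markers, fits of only the groups compared, and leaving out each library. The members and lists were chosen with earlier results of these data known. Scripts were tested on simulated data.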

Additional observations from a re-analysis of the deposited data

Results flagged for a closer look

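Of the 108 sets of 5 libraries examined for a value far from the other 4 (9 genes in 12 groups), 3 had such a library, and chance gives about 1 in 20. Bpnt1, the bisphosphate nucleotidase, was highest at 1716 in WT lithium male replicate 5, where the other 4 lay between 1632 and 1640.0. Cds1 was lowest in the same library, at 2717 against 3111 to 3269. Cds2 was highest in Het lithium male replicate 3, at 16913 against 15420 to 15792. The fluoxetine effect was called as different between the genotypes by the test of the difference itself for Bpnt1, at 0.12 (Het minus WT, log2 scale), and for Isyna1, the inositol synthase, at -0.36. The Bpnt1 call was lost in 27 of 40 fits that left out 1 library and in 6 of 9 other alternatives. The Isyna1 call was lost in 2 of 40 and 4 of 9.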

How the results depend on the processing

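Of 279 member changes, 33 were called. Of these, 14 were called under all 9 alternatives and with each library of the groups compared left out in turn. They were, pooled, Impa1, Impa2 and Cdipt under lithium, Impa1 and Cdipt under fluoxetine, and Impa2 and Slc5a3 between the drugs; by genotype, Cdipt in WT and Impa1 in Het under lithium, Impa1 and Isyna1 in Het under fluoxetine, and between the drugs Impa2 in WT and Isyna1 and Slc5a3 in Het. The 1 change of direction was Cds2 in Het under fluoxetine, -0.0056 with quantile normalization (limma adjusted p = 0.919). Of 246 uncalled changes, 108 changed sign somewhere and 31 were called somewhere.

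The number of members called moved as follows; the causes were not tested. Quantile normalization gave 2 for lithium in WT (from 1), 1 for fluoxetine in WT (from 0), 3 for fluoxetine in Het (from 5) and 1 for the fluoxetine difference between genotypes (from 2). Rescaling to equal totals gave 1 for fluoxetine in WT, 4 pooled (from 2), 5 between the drugs pooled (from 3) and 1 for the difference between genotypes. Olfactory bulb and oligodendrocyte scores gave 1 for lithium in WT females (from 0), 3 in WT, 0 for fluoxetine in Het females (from 2), 1 for Het against WT in fluoxetine males (from 0), 1 between the drugs in WT (from 3) and 0 for the difference between genotypes. Neuronal and endothelial scores, chosen after seeing the data, gave for lithium 3 in WT, 1 in Het males (from 2) and 6 pooled (from 3), for fluoxetine 3 in WT, 0 in Het females, 3 in Het and 4 pooled, and 0 for Het against WT under fluoxetine (from 1) and for the difference between genotypes. Without the 16 olfactory-rich libraries, lithium gave 0 in Het males, 2 in Het females (from 0) and 1 in Het (from 2), fluoxetine 0 in Het males (from 4) and 2 in Het, and Het against WT under fluoxetine and the difference between genotypes 0 each; over all genes, 2031 rather than 3401 were then called for pooled lithium, and 3825 rather than 5986 for pooled fluoxetine. Fitting only the groups compared gave lithium 2 in WT and 0 in Het males, fluoxetine 1 in WT, 1 in Het males, 0 in Het females and 3 in Het, and 0 for Het against WT under fluoxetine and for the difference between genotypes.

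With 1 library left out, the members called ranged for lithium from 1 to 2 in WT, 0 to 2 in Het males, 2 to 3 in Het and 3 to 4 pooled. For fluoxetine they ranged from 2 to 5 in Het males, 0 to 2 in Het females, 3 to 5 in Het and 2 to 4 pooled. Het against WT under fluoxetine ranged from 0 to 1 in males and 1 to 3 in both sexes, lithium against fluoxetine from 1 to 3 in WT, 2 to 4 in Het and 3 to 4 pooled, and the difference between genotypes from 0 to 3. All other comparisons stayed at 0 to 0.

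With the replicate block, lithium in WT gave 2 members (Impa1 at an adjusted p of 0.0496) and Het against WT under fluoxetine 2 rather than 1; it also called Impa1 for the difference between genotypes (0.16, adjusted p = 0.0485). The replicate numbers do not pair the samples: same-numbered libraries of different groups correlated at a mean of 0.0025 (-0.276 to 0.295 over 330 pairs), and 18 of 60 libraries correlated best with their own number. Count models were not run because the deposited values are normalized. Although the values stepped in whole multiples in each library, the reads recovered from those steps were not accepted as counts for every library.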
